A study of Mus musculus with 5 samples.

Results

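Lipid droplets are the stores of triglyceride inside a cell, and a fatty liver holds many of them. Each droplet is wrapped in coat proteins of the perilipin family, grows by fusion through CIDE proteins, and is emptied by lipases whose activity other droplet proteins restrain. PPARG is a nuclear receptor that binds DNA together with a retinoid X receptor and turns on genes of fat uptake and storage; it is best known from fat tissue and is also raised in fatty liver. The 10 genes described here are the receptor itself (Pparg), proteins of fatty acid uptake and transport (Cd36, Fabp4), the droplet fusion proteins (Cidea, Cideb, Cidec), droplet coats (Plin1, Plin2), the lipase inhibitor G0s2 and Fitm1, a membrane protein that helps droplets form. They are 10 of 28630 gene names on the arrays. They were chosen by name: 8 carried their name in the array annotation (Plin2 as its older name Adfp), and Plin1 and Fitm1, filed under other names, were matched by their RefSeq accessions. Together they have 13 of 41174 probes.

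The samples were livers of male C57BL/6J mice aged 25 weeks. The control group was untreated. HFHFr-F had the HFHFr (high-fat, high-fructose) diet for 20 weeks. The 3 other groups had the HFHFr diet for 16 weeks and then, for 4 weeks, normal diet (HFHFr-N), normal diet supplemented with all-trans retinoic acid (HFHFr-NA) or HFHFr diet supplemented with all-trans retinoic acid (HFHFr-FA). All-trans retinoic acid is the form of vitamin A that activates the retinoic acid receptors. The labels call HFHFr-F severely insulin resistant and HFHFr-N insulin resistant. They describe HFHFr-NA as recovered and HFHFr-FA as free of insulin resistance, with slight steatosis of the liver. RNA of 5 mice was pooled for each group and hybridised to 1 array, so mouse-to-mouse spread was not measured, no test between groups was possible, and "higher" and "lower" below describe these pools.

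Signals are given as scaled signal, which is the processed Cy3 intensity of a probe divided by the 75th percentile of its own array. That percentile ranged from 172.2 to 222.6, and between 46.7% and 49.4% of spots were well above background. A gene is said to differ when 2 scaled signals were at least 2-fold apart, a log2 ratio of at least 1 in size. The scanner software put its error at 10% of the signal for the chosen probe of the 9 genes that were measured, which gives a log2 ratio an error of 0.20. The 10 spots of the Pparg probe spread less, with SDs of 0.03 to 0.05 on the log2 scale within an array. Neither figure includes differences between mice. The array of HFHFr-FA was the only one on its slide; in comparisons with that pool the slide cannot be told apart from the group. The median log2 ratio of all genes in HFHFr-F against control was -0.08, and 62.7% of the genes that differed were higher; with cyclic loess scaling these were 0.02 and 74.3%. In HFHFr-FA against HFHFr-F 48.9% were higher, and 35.3% after median centring. In HFHFr-N against HFHFr-F 37.2% were higher, against 25.5% after median centring and 24.4% with cyclic loess, and the median of all genes went from 0.10 to -0.01 with either. The markers of hepatocytes, including albumin (Alb), were well above background on 5 of 5 arrays for 8 of 8 genes. In HFHFr-F against control 1 of 8 was lower, Tat at -1.26, and 0 higher, against 3.21% and 5.40% of all genes. Their median was -0.39, with Ass1 at -0.90, Hnf4a at -0.81, Apoa1 at -0.52, Ttr at 0.37 and Cyp2e1 at 0.27. In HFHFr-FA against HFHFr-F 0 of 8 differed, where 2.71% and 2.83% of all genes did. In both comparisons Tat, Ass1, Hnf4a and Apoa1 lay on the side of G0s2 and Plin2, at 0.98, 0.64, 0.49 and 0.44 in the latter. There Ttr (-0.56), Apob (-0.55), Alb and Cyp2e1 lay on the other side. Liver tissue holds several cell types, and fewer cells of a type cannot be told apart from less RNA per cell.

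The members were grouped into 3 patterns and a remainder. Pparg, Cd36 and Cidea were high in both pools without retinoic acid that had seen the diet (HFHFr-F and HFHFr-N) and lower in the retinoic acid pool on either diet. Fabp4 and Cidec were highest in the pools still on the diet, HFHFr-F and HFHFr-FA, which for Cidec lay within the software's error of each other. G0s2 and Plin2 had their lowest signal in HFHFr-F, where Plin2 was level with both normal-diet pools, and their highest in HFHFr-FA, where Plin2 was within the software's error of control and G0s2 within that of HFHFr-NA. Cideb was level across the 5 pools, and Plin1 was not measured. Fitm1 stayed within a 1.44-fold range but was lowest in both retinoic acid pools, as Pparg was. Its highest pools, HFHFr-N and HFHFr-F, lay within the software's error of control.

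**Figure D1:**
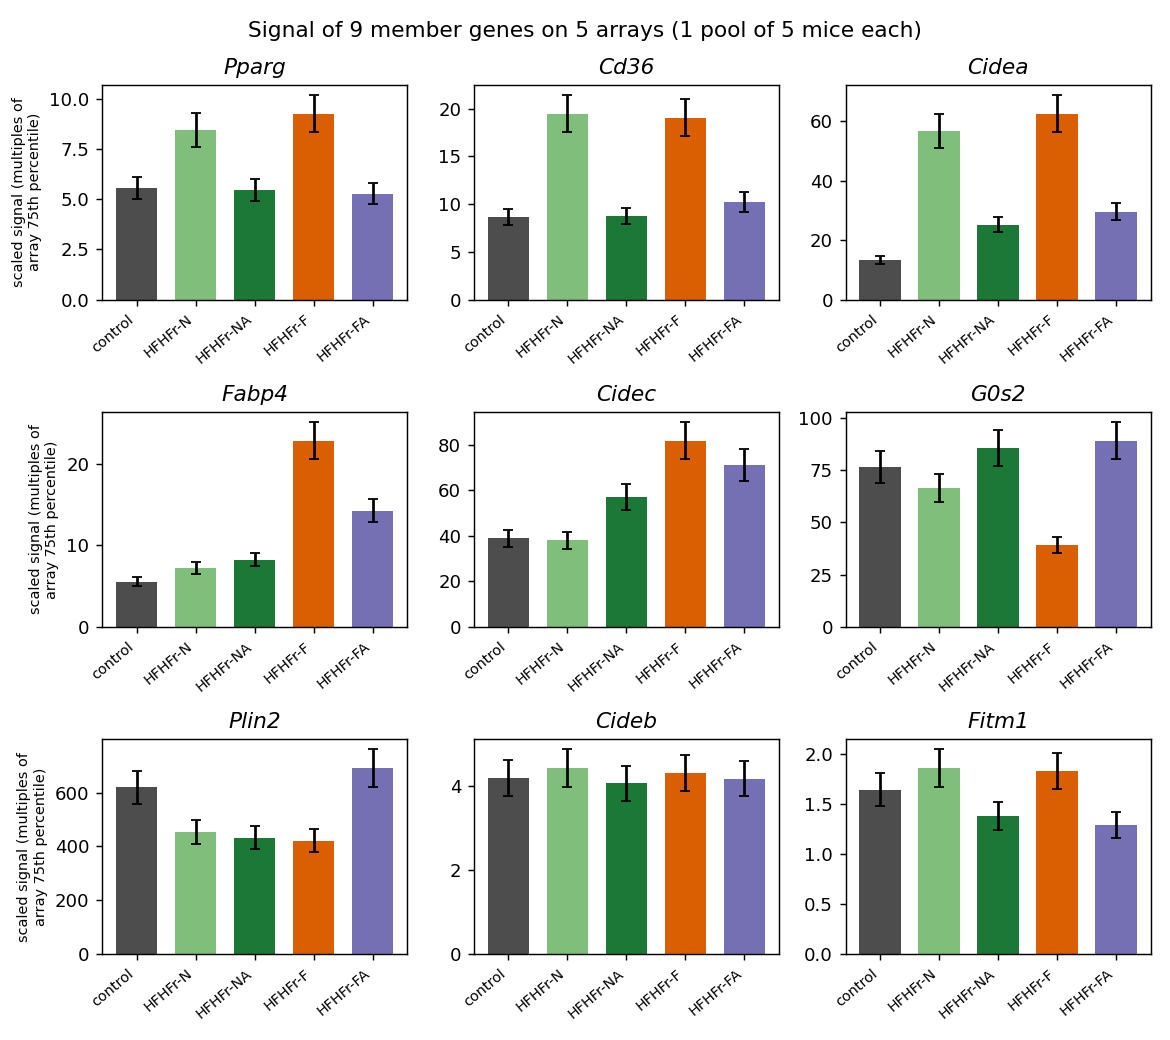
Scaled signal (vertical axis, multiples of the array's 75th percentile, from 0) of the 9 measured genes in the 5 pools, 1 array each; error bars are the scanner software's own error of the spot. Pparg, Cd36 and Cidea are high in HFHFr-N and HFHFr-F, Fabp4 and Cidec are highest in HFHFr-F and HFHFr-FA, and G0s2 and Plin2 are lowest in HFHFr-F.

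In HFHFr-F against control 4 of 9 were at least 2-fold higher (Cidea, Fabp4, Cd36 and Cidec), where 5.40% of 14628 measured genes were, and 0 were lower, where 3.21% of genes were. The median log2 ratio of the 9 was 0.74. In HFHFr-N against control 2 were higher, Cidea and Cd36, with a background of 1.15%, and 0 lower, with one of 0.834%. In HFHFr-FA against HFHFr-F 1 was lower, Cidea, and 1 higher, G0s2, against 2.83% and 2.71% of all genes. In HFHFr-NA against HFHFr-N 2 were lower, Cidea and Cd36, against 1.30%, and 0 higher, against 1.51%. In HFHFr-N against HFHFr-F 2 were lower, Fabp4 and Cidec, against 3.62%, and 0 higher, against 2.15%. In HFHFr-FA against control 2 were higher, Fabp4 and Cidea, against 4.47%, and 0 lower, against 1.95%. In HFHFr-NA against control 0 were higher, against 2.0%, and 0 lower, against 1.41%. The members were picked with these data already seen, so the counts describe the set and say nothing about how it compares with other sets.

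**Figure D2:**
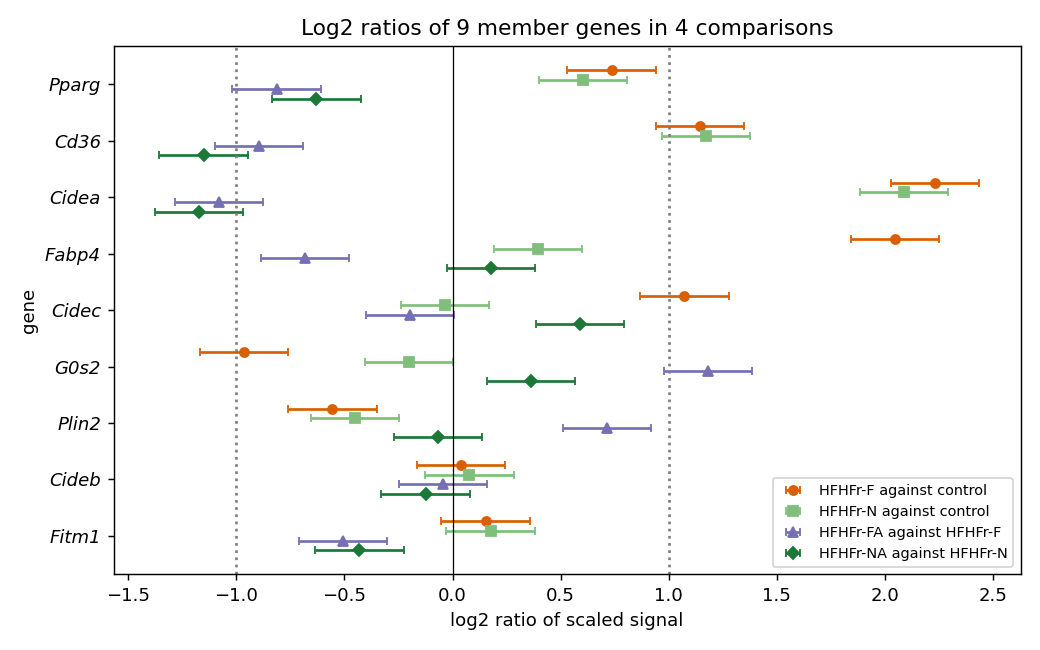
Log2 ratio of scaled signal (horizontal axis) of the 9 measured genes in 4 comparisons; bars are the scanner software's error of the ratio and dotted lines mark 2-fold. Both diet ratios of Pparg, Cd36 and Cidea lie to the right and both retinoic acid ratios to the left, while the HFHFr-FA against HFHFr-F ratios of G0s2 and Plin2 lie to the right.

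Pparg, the receptor, was measured by 1 probe spotted 10 times, at chr6:115440213-115440272 (mm9). In control it gave 5.56, in HFHFr-F 9.26, in HFHFr-FA 5.27, in HFHFr-N 8.46 and in HFHFr-NA 5.47 of scaled signal. The pools without retinoic acid after the diet were therefore the high ones, and the control and both retinoic acid pools lay within the software's error of each other. The log2 ratio was 0.74 in HFHFr-F and 0.60 in HFHFr-N against control, and -0.81 in HFHFr-FA against HFHFr-F and -0.63 in HFHFr-NA against HFHFr-N. None of these reached 2-fold. By rank, 91.1% of genes with a ratio in HFHFr-F against control, bounds included, had a lower one. In HFHFr-FA against HFHFr-F 4.52% had a lower one. The gene has several start sites, and a single probe does not tell their transcripts apart.

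Cd36, a membrane receptor that takes up long-chain fatty acids, was high and low in the same pools. The scaled signals were 8.62 (control), 19.1 (HFHFr-F), 10.2 (HFHFr-FA), 19.5 (HFHFr-N) and 8.76 (HFHFr-NA). HFHFr-N and HFHFr-F were level, and HFHFr-NA was level with control. The log2 ratio was 1.14 in HFHFr-F and 1.17 in HFHFr-N against control, with 96.0% and 99.3% of genes below it. With retinoic acid it was -0.90 on the HFHFr diet, short of 2-fold, and -1.15 on normal diet. A second probe for Cd36 gave ratios of 1.01, 1.05, -0.86 and -1.19 in those 4 comparisons, on the same side as the first. The chosen probe lies at chr5:17288600-17288659 and the other is placed over chr5:17289110-17291542 (mm9), a span of 2433 bases for a probe of 60.

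The sequence before the start of Pparg and of Cd36 is shown because these genes were high in the same pools and nuclear receptors of this class recognise the hexamer AGGTCA. The 300-base windows around gene starts (250 bases before, 50 after) come from RefSeq on GRCm38.p6, and 11 windows of 8 of the 10 members were searched. Cidea and Fabp4 are not covered. Windows on the chromosome of Cidea were left out for the members, though not from the count over all promoter windows, and Fabp4 had no window. Only the 250 bases before the start are printed, 5′ to 3′ on the gene's strand, with the hexamer on either strand in capitals (AGGTCA, or TGACCT for the opposite strand). Plin2 is added because it holds the hexamer too while its signal was lower, not higher, in HFHFr-F and HFHFr-N than in control.
Pparg first start, chr6:115360894-115361143, plus strand: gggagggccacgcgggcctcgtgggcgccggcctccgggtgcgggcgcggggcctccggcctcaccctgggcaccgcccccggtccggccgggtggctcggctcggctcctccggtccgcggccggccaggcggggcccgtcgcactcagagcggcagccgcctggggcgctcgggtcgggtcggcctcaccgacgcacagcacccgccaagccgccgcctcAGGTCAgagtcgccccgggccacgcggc
Cd36, chr5:17835897-17836146, minus strand: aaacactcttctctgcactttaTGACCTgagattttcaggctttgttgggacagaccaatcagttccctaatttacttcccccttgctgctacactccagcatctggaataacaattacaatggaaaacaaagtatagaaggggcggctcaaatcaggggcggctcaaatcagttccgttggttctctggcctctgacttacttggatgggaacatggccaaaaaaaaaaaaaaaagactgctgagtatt
Plin2, chr4:86670060-86670309, minus strand: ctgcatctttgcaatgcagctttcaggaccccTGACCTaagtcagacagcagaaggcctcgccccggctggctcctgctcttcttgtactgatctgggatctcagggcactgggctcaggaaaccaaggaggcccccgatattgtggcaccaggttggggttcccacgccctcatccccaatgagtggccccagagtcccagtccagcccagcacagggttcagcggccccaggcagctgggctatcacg

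The hexamer stood in 4 of the 11 windows, those of 3 genes, and in 16.3% of 32851 promoter windows of this length. Pparg had it before 2 of its 3 starts. None of the 11 windows held AGGTCANAGGTCA, the direct repeat with a spacing of 1 that PPAR receptors prefer, which 0.0396% of all windows held. The same was true of AGGTCANNAGGTCA and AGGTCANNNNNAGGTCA, the spacings of 2 and 5 that retinoic acid receptors bind, each in 0.00913% of windows. These longer patterns contain the hexamer and were also searched on both strands. A match is a run of letters and not a measured binding site, and sites outside these windows were not examined.

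Cidea, a fusion protein of the droplet surface that is abundant in brown fat and scarce in lean liver, had the widest range of any measured member, 4.70-fold. Scaled signal was 13.3 in control, 62.4 with the diet throughout (HFHFr-F) and 29.5 with retinoic acid added to it (HFHFr-FA), against 56.5 in HFHFr-N and 25.1 in HFHFr-NA. HFHFr-N and HFHFr-F lay within the software's error of each other, and the retinoic acid pools lay between them and control. The log2 ratio against control was 2.23 in HFHFr-F and 2.09 in HFHFr-N, with 99.3% and 99.9% of genes below it. It was -1.08 in HFHFr-FA against HFHFr-F and -1.17 in HFHFr-NA against HFHFr-N. Both retinoic acid pools stayed above control, by 1.15 and 0.92. After normexp background correction with quantile normalization the ratio of HFHFr-FA to HFHFr-F was -0.97, just under 2-fold.

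Cidec, the CIDE protein best known for building large droplets in fat tissue and fatty liver, was arranged differently. In control it gave 38.9, in HFHFr-F 81.7, in HFHFr-FA 71.3, in HFHFr-N 38.0 and in HFHFr-NA 57.1 of scaled signal. The pools on the HFHFr diet were the highest and HFHFr-N was level with control. The log2 ratio was 1.07 in HFHFr-F against control, -0.03 in HFHFr-N against control and -1.11 in HFHFr-N against HFHFr-F. With retinoic acid it was -0.20 on the HFHFr diet, within the software's error, and 0.59 on normal diet. HFHFr-FA against control was 0.87, and 1.03 with cyclic loess scaling. Its probe lies at chr6:113374693-113374752 (mm9).

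Cideb, the family member normally made by hepatocytes, where it also loads lipid onto lipoproteins, was level. The 5 scaled signals, 4.20 in control, 4.32 in HFHFr-F, 4.18 in HFHFr-FA, 4.44 in HFHFr-N and 4.07 in HFHFr-NA, had a range of 1.09-fold that lay within the software's error. The 3 CIDE genes therefore had 3 different profiles over the same 5 pools: high in HFHFr-F and also after return to normal diet (Cidea), high in HFHFr-F but level with control in HFHFr-N (Cidec), and level (Cideb). The Cideb probe lies at chr14:56373987-56374046 (mm9).

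Fabp4, the fatty acid binding protein of adipocytes and macrophages, was the member with the next largest difference on the diet. The scaled signals were 5.51 (control), 22.8 (HFHFr-F), 14.2 (HFHFr-FA), 7.25 (HFHFr-N) and 8.21 (HFHFr-NA). The HFHFr pools stood apart from the other 3, and HFHFr-N and HFHFr-NA were within the software's error of each other. The log2 ratio was 2.05 in HFHFr-F against control, 1.37 in HFHFr-FA against control, -0.68 in HFHFr-FA against HFHFr-F and -1.65 in HFHFr-N against HFHFr-F.

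Fabp4 had 3 probes, placed at different positions. A second probe gave 3.60 in control, 14.7 in HFHFr-F, 9.54 in HFHFr-FA, 4.28 in HFHFr-N and 4.93 in HFHFr-NA, with a log2 ratio of 2.03 in HFHFr-F against control. The remaining probe was dim: its unscaled signals of 15.7, 16.4 and 16.0 in control, HFHFr-N and HFHFr-NA were not well above background, while those of the HFHFr-F array (70.4) and the HFHFr-FA array (34.9) were. Its HFHFr-F signal was at least 1.81 higher than control on the log2 scale, and its ratio of HFHFr-FA to HFHFr-F was -0.94. In each of the 3 probes HFHFr-F was highest and HFHFr-FA next. The sequences of the second and the dim probe are shown because both put HFHFr-F first and HFHFr-FA next, although the dim one was above background only on those 2 arrays.
Fabp4 second probe, chr3:10204533-10205262 (mm9, with a gap of 670 bases): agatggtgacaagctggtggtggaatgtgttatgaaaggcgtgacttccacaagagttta
Fabp4 dim probe, chr3:10208442-10208501 (mm9): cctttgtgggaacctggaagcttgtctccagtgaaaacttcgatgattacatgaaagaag

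The chosen Fabp4 probe lies at chr3:10204452-10204511 (mm9). The second probe has 45.0% of G and C and the dim probe 43.3%.

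Cd36 and Fabp4 are also expressed by macrophages, endothelial cells and adipocytes, and Cidea, Cidec and Plin1 by adipocytes. Of 9 markers of lipid-associated macrophages on the arrays, 8 were well above background in HFHFr-F and 5 in control. Their summed scaled signal was 96.3 in HFHFr-F, 25.7 in HFHFr-FA, 17.1 in control, 19.8 in HFHFr-N and 18.3 in HFHFr-NA. Most of the sum in HFHFr-F was Spp1 (osteopontin), at 6044% of the array's 75th percentile. In HFHFr-F against control 6 of 8 measured markers were higher and 0 lower, where 5.40% and 3.21% of all genes were, with Trem2, a lipid-sensing receptor, at 4.22. The 6 include Itgax, at least 3.83 higher, and Gpnmb, at least 2.73 higher. Itgax, Gpnmb and Mmp12 were not well above background in control. In comparisons with control they count as measured only through the other pool and could not come out lower. In HFHFr-FA against control 3 of 7 were higher and 0 lower, against 4.47% and 1.95% of all genes, with Trem2 at 2.83, Cd63 at 1.72 and Itgax at least 3.22. In HFHFr-NA against control 2 of 6 were higher and 0 lower, against 2.0% and 1.41% of all genes, with Trem2 at 1.99. Their sum was thus highest in the pool where Fabp4 was highest, and in HFHFr-N, where Cd36 was as high as in HFHFr-F, it was 19.8, with 2 of 6 measured markers higher and 0 lower than control, against 1.15% and 0.834% of all genes. The 12 markers of Kupffer cells and other macrophages summed to 124.5 in control, 240.0 in HFHFr-F, 224.6 in HFHFr-FA, 155.3 in HFHFr-N and 115.6 in HFHFr-NA. Lyz2, Cd5l and Marco made up most of the HFHFr-F sum. In HFHFr-F against control 3 of 12 were higher and 0 lower, against 5.40% and 3.21% of all genes. They were Cd68 at 1.37, Marco at 1.13 and Cd5l at 1.12, and the list's median was 0.88. The lowest ratios there were those of Timd4 at -0.87, Vsig4 at 0.05 and Clec4f at 0.13. In HFHFr-FA against HFHFr-F 1 of 12 was higher and 0 lower, against 2.71% and 2.83% of all genes, with a median of 0.06. Timd4, Clec4f and Vsig4 were at 1.08, 0.66 and 0.61 there. Cd5l (-0.35), Adgre1 (-0.25), Marco (-0.16), Lyz2 (-0.12) and Cd68 (-0.12) lay on the other side. The 9 endothelial markers summed to between 35.2 in HFHFr-F and 47.8 in HFHFr-N. In HFHFr-F against control 0 of 9 differed, where 5.40% and 3.21% of all genes were higher and lower. Among the adipocyte markers Adipoq, Lep, Retn and Ucp1 were not well above background on any array, and the remaining 2 of the 6 on the array, Cfd and Lipe, were on 5 of 5. Of the 7 stellate cell markers 2 of 6 measured were higher and 0 lower in HFHFr-F against control, where 5.40% and 3.21% of all genes were. They were Col1a1 at 4.12 and Pdgfrb at 1.52. The sum of the 7 was 6.36 in control, 12.8 in HFHFr-F and 12.3 in HFHFr-FA, against 7.81 in HFHFr-N and 8.92 in HFHFr-NA. It was thus highest in the pools where Fabp4 and Cidec were highest, but its parts differed between these. Reln was the largest part in both, at 452% and 621% of the array's 75th percentile. In HFHFr-FA against HFHFr-F 1 of 7 was lower, Col1a1 at -1.72, and 0 higher, against 2.83% and 2.71% of all genes. Lrat was at 0.58 and Reln at 0.46 there. The part of macrophages and of these other cells in the Fabp4, Cidec and Cd36 values was not tested.

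Plin1, the perilipin that coats the large droplet of fat cells, was not well above background on any of the 5 arrays. Its processed signal was 6.87 in control and between 2.80 and 3.40 in the other 4 pools, so no ratio was formed. The probe lies at chr7:86866112-86866171 (mm9).

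Plin2, the perilipin that coats droplets in hepatocytes and is degraded when it is not on a droplet, was lower on the diet and higher with retinoic acid on it. Scaled signal was 619 in control, 421 with the diet throughout (HFHFr-F) and 691 with retinoic acid added to it (HFHFr-FA), against 453 in HFHFr-N and 432 in HFHFr-NA. HFHFr-FA was the highest and control next, within the software's error of it, and the other 3 pools were level. The log2 ratio was -0.56 in HFHFr-F against control, -0.45 in HFHFr-N against control and 0.71 in HFHFr-FA against HFHFr-F, all under 2-fold. In HFHFr-NA against HFHFr-N it was -0.07, within the software's error. The probe lies at chr4:86302676-86302735 (mm9) and was not saturated on any array.

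G0s2, an inhibitor of the triglyceride lipase ATGL (Pnpla2), had the clearest pattern of this kind. In control it gave 76.4, in HFHFr-F 39.2, in HFHFr-FA 89.0, in HFHFr-N 66.4 and in HFHFr-NA 85.5 of scaled signal. HFHFr-F stood below the 4 other pools. The log2 ratio was -0.96 in HFHFr-F against control, just under 2-fold, and 1.18 in HFHFr-FA against HFHFr-F, with 98.5% of genes below it. It was 0.36 in HFHFr-NA against HFHFr-N and 0.22 in HFHFr-FA against control. The lipase itself, Pnpla2, lay on the same side in both, at -0.74 in HFHFr-F against control and 0.78 in HFHFr-FA against HFHFr-F, and at -0.28 and 0.52 on its other probe. The G0s2 probe lies at chr1:195098925-195098984 (mm9).

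Fitm1, best known from skeletal muscle, varied little. The scaled signals were 1.65 (control), 1.83 (HFHFr-F), 1.29 (HFHFr-FA), 1.86 (HFHFr-N) and 1.38 (HFHFr-NA). The retinoic acid pools were the lowest, with log2 ratios of -0.51 on the HFHFr diet and -0.43 on normal diet, under 2-fold. Of 6 skeletal muscle markers on the arrays 1, Mylpf, was well above background, on 5 of 5 arrays, and their summed scaled signal was 0.21 to 0.33. The probe is placed over chr14:56194734-56195160 (mm9).

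HFHFr-FA against HFHFr-F and HFHFr-NA against HFHFr-N share no array, so the difference between them can be given for each member, though not tested. The retinoic acid ratios of Pparg, Cd36, Cidea, Cideb and Fitm1 differed between the diets by less than the software's error of 0.29, with values (HFHFr diet minus normal diet) of -0.18, 0.26, 0.09, 0.08 and -0.08. For 4 members the gap was larger: 0.82 for G0s2, 0.78 for Plin2, -0.79 for Cidec and -0.86 for Fabp4. Of all 14276 genes measured in both, the middle 95% had differences between -1.12 and 1.1, which contains each of these, and 57.7% had the same sign in both. Of the 9 members 6 had the same sign, and Fabp4, Cidec and Plin2 did not.

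**Figure D3:**
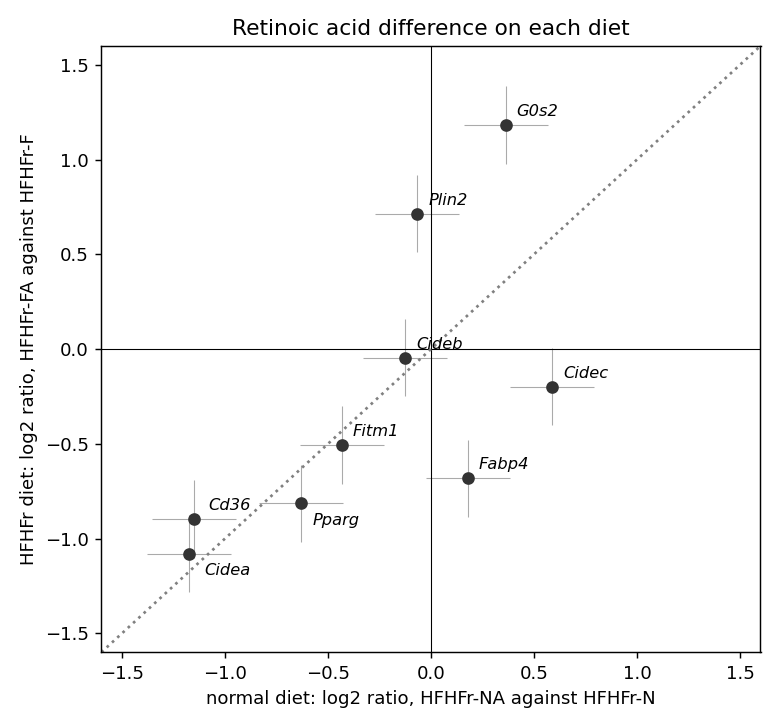
Log2 ratio with retinoic acid against without it, on normal diet (horizontal axis, HFHFr-NA against HFHFr-N) and on the HFHFr diet (vertical axis, HFHFr-FA against HFHFr-F), for the 9 measured genes; grey bars are the software's error and the dotted line marks equal ratios. Cidea, Cd36, Pparg, Fitm1 and Cideb lie near the line, G0s2 and Plin2 above it, and Fabp4 and Cidec below it.

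Other genes of these functions were taken from 6 lists. Of 19 further genes described as PPARG targets in fat or fatty liver, 18 were measured in HFHFr-F against control, 7 higher and 0 lower, where 5.40% and 3.21% of all genes were, with a median of 0.15 beside -0.08 for all genes. Ucp2, a mitochondrial carrier, was at 1.77, Mogat1, an enzyme of triglyceride synthesis, at 1.75, the perilipin Plin4 at 1.74, the lipoprotein receptor Vldlr at 1.64, lipoprotein lipase (Lpl) at 1.63 and the phospholipid transfer protein Pltp at 1.60. The remaining one, the glycerol channel Aqp7, was at least 1.06 higher. Aqp7 was well above background only in HFHFr-F and counts as measured only through that pool. It could not come out lower than control, nor higher in HFHFr-FA than in HFHFr-F. Angptl4, on the same list, went the other way without reaching 2-fold, at -0.60, and was at 0.67 in HFHFr-FA against HFHFr-F. In HFHFr-FA against HFHFr-F 4 were lower (Vldlr at -1.70, Mogat1 at -1.51, Pltp at -1.43 and Aqp7 at -1.25 or lower) and Cfd, a protease secreted by fat, was higher by 1.05, where 2.83% and 2.71% of all genes were lower and higher; the list's median was -0.09 beside 0.03. The same list had 2 members higher and 0 lower in HFHFr-N against control, Vldlr at 1.51 and Cfd at 1.27, where 1.15% and 0.834% of all genes were. It had 1 lower and 0 higher in HFHFr-NA against HFHFr-N, Cfd at -1.64, where 1.30% and 1.51% of all genes were. Vldlr was thus high in HFHFr-N and HFHFr-F, as Cidea and Cd36 were. In HFHFr-FA against control 4 of 17 were higher and 0 lower, where 4.47% and 1.95% of all genes were. They were Plin4 at 1.60, Ucp2 at 1.20, Cfd at 1.18 and Hilpda at 1.12. Plin4 was also at 0.84 in HFHFr-N against control, where Fabp4 was at 0.40 and Cidec at -0.03. Aqp7 and Angptl4 were named after their values were seen.

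**Figure D4:**
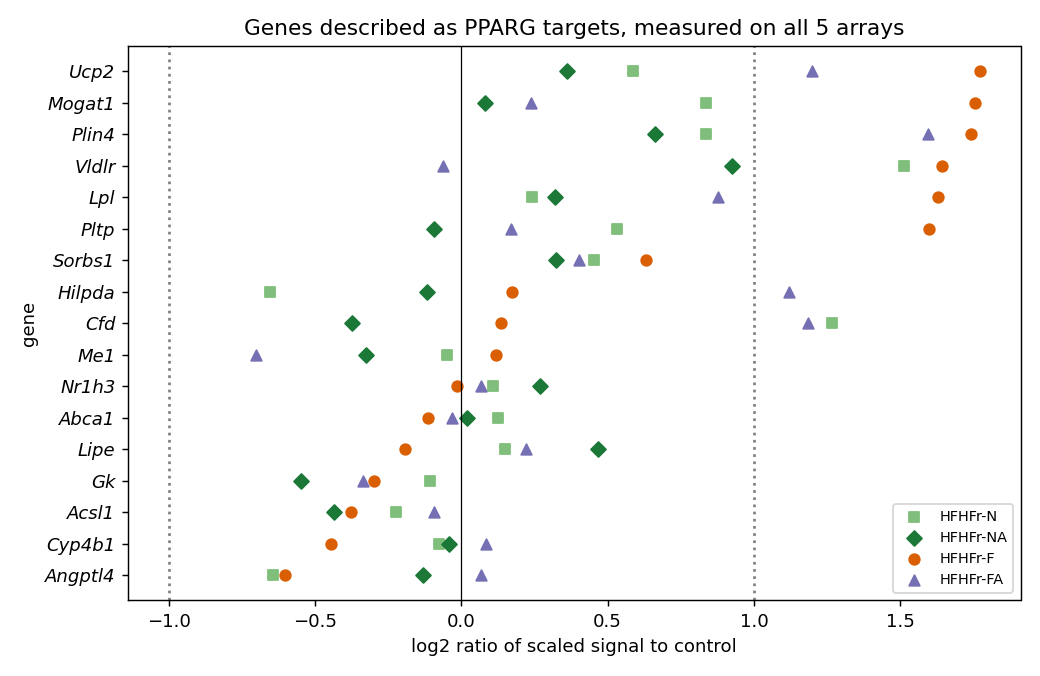
Log2 ratio of scaled signal to control (horizontal axis) of the 17 listed PPARG target genes measured on all 5 arrays, in the 4 treated pools; dotted lines mark 2-fold. In HFHFr-F 6 genes lie beyond 1, from Ucp2 at 1.77 to Pltp at 1.60, and of these Vldlr is beyond 1 in HFHFr-N as well.

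Of 15 other droplet coat and biogenesis genes, 2 were higher in HFHFr-F against control and 0 lower, where 5.40% and 3.21% of all genes were. The list's median was 0.12 beside -0.08 for all genes. The higher ones were Plin4 and Nsdhl, a sterol synthesis enzyme that also sits on droplets, at 1.41. The 2 other probes of Nsdhl gave 0.9997 and 1.01, so its call depends on the probe. In HFHFr-FA against HFHFr-F 0 of 15 differed, where 2.71% of all genes were higher and 2.83% lower. The largest ratios were those of the droplet protein Hilpda at 0.95 and of Plin5, which links droplets to mitochondria, at 0.84. Both lay on the same side as Plin2 and G0s2, and Nsdhl followed at -0.74 on the other side. The list's median was 0.02 beside 0.03 for all genes. Of 10 droplet lipases and regulators, 9 were measured and 0 differed in either comparison, beside the same shares of all genes. Their medians were -0.11 and -0.25. Of 14 triglyceride assembly genes 2 were higher in HFHFr-F against control, where 5.40% of all genes were. They were Mogat1 and Mogat2, the latter by at least 3.04. Mogat2 was not well above background in control, so it could not come out lower in that comparison. Mogat1 and Mogat2 were also the 2 lower ones in HFHFr-FA against HFHFr-F, where 2.83% of all genes were lower, with Mogat2 at -2.67. Of 14 further genes of fatty acid uptake and binding, 13 were measured. Vldlr and Lpl were the 2 higher in HFHFr-F against control and 0 were lower, where 5.40% and 3.21% of all genes were. The list's median was 0.01. Lipc was at -0.98, just under 2-fold, and Slc27a1 at -0.62, or at -1.24 on its other probe. Vldlr was the 1 lower in HFHFr-FA against HFHFr-F, where 2.83% of all genes were. Lpl, at 1.63, is also a marker of lipid-associated macrophages.

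Among 16 partners and coregulators of PPARG, 15 were measured and 1 was lower in HFHFr-F against control, where 3.21% of all genes were. It was Nr0b2, a corepressor, at -1.36. In HFHFr-FA against HFHFr-F 0 of 15 differed, where 2.71% of all genes were higher and 2.83% lower. The median there was 0.30 beside 0.03 for all genes, with the coactivator Ppargc1b at 0.80. The retinoid X receptor Rxra, named after its value was seen, had ratios of 0.32 and 0.06 in those comparisons on its chosen probe and of -0.42 and 0.51 on its other probe, so its probes disagreed in direction on the diet. Several genes stand in more than 1 list, among them Mogat1, Lpl, Vldlr, Plin4, Hilpda, Lipe and Acsl1.

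The 5 genes with profiles most like each member that ranged at least 2-fold were taken among 10671 genes with a gene symbol that were well above background on all 5 arrays, by the root mean square distance between profiles centred on their means. For Cidea they were Abcd2 at a distance of 0.12 on the log2 scale, then Srebf1 at 0.22, Osbpl5, Slc35f2 and Tceal8. For Cd36 they were Hnmt at 0.17, Fuca2, Col27a1, Aacs and Vegfb. For Fabp4 they were Col1a2 at 0.04, Klf6 at 0.05, Ifi44, Mki67 and Rab7b, and for Cidec Adam15 at 0.08, Txndc16, Cbx6, Tap2 and Tgif2. For G0s2 they were Ldlrad3 at 0.03, Fam234b at 0.07, Serpina11, Gmeb2 and Hyal1. The distances rest on 5 arrays.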

How the data were processed

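Liver RNA of 5 mice per group, pooled, was measured on 5 one-colour (Cy3) Agilent arrays, per the labels. Processed intensity, background-subtracted and detrended within each array by Agilent's Feature Extraction software (version 10.5.1.1, per the file headers), was deposited by the authors without scaling between arrays. The value table that the authors deposited is a linear ratio of that intensity to 1 constant per array, as was found by setting it against the scanner files; scale and direction are those of the signal, it is not centred, and its medians were 0.0700 for control, 0.0675 for HFHFr-F, 0.0721 for HFHFr-FA, 0.0738 for HFHFr-N and 0.0744 for HFHFr-NA. Probe positions are mm9; no exon or intron was assigned to them.

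Spots flagged as outliers (60 to 96 per array, on no member probe) were left out, spots of a probe averaged as log2, and arrays scaled by the 75th percentile of non-control spots. RefSeq accessions (GRCm38.p6 table, for names) named 24844 of 41174 probes. The brightest probe stood for a gene. Genes not well above background on 1 array of a pair gave a bound against the higher of their own signal and that array's lowest well-above-background signal, set to 0 where under 1-fold; genes below it on both were left out. Members and lists were chosen with earlier results of these data known. Named genes were the members, 5 like profiles each, and up to 4 and 3 largest ratios per list in HFHFr-F against control and HFHFr-FA against HFHFr-F. The 9 kinds of alternative planned changed scaling, background correction, probe choice, filters, value source or threshold, and 1, each other probe of a member, was added after seeing the data. The ratio code was tested on simulated data. Python 3.11.15, pandas 2.3.3 and limma 3.58.1 were used. The number of arrays limits the precision.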

Additional observations from a re-analysis of the deposited data

Results flagged for a closer look

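For 3 members the ratio with retinoic acid pointed one way on the HFHFr diet and the other way on normal diet; each rests on 1 pool per group and the difference was not tested. Fabp4 was at -0.68 in HFHFr-FA against HFHFr-F and 0.18 in HFHFr-NA against HFHFr-N, the latter within the software's error of 0.20; its second probe gave -0.62 and 0.20. Cidec was at -0.20, within that error, and 0.59. Plin2 was at 0.71 and -0.067, the latter within that error.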

How the results depend on the processing

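No paired analysis was possible because each group is 1 array, and for the same reason no replicate could be left out. Of 519 member ratios recomputed under an alternative, 517 kept their side of 2-fold. The exceptions were Cidea in HFHFr-FA against HFHFr-F, -0.97 with normexp and quantile normalization, which left 0 members lower there, and Cidec in HFHFr-FA against control, 1.03 with cyclic loess. The sign differed in 27, all for ratios of at most 0.104 in size. Many of the 519 could not move, so their number overstates how far the ratios were tried. No member probe had an outlier spot, and the detection filter does not alter a ratio measured on both arrays. Averaging probes changes nothing for a gene with 1 probe. The authors' value table differs from the signal only by 1 constant per array. At a threshold of 1.5-fold the members higher numbered 2 in HFHFr-FA against HFHFr-F (Plin2 and G0s2), 1 in HFHFr-N against HFHFr-F (G0s2), 1 in HFHFr-NA against HFHFr-N (Cidec) and 1 in HFHFr-NA against control (Cidea), and those lower numbered 1 in HFHFr-F against control (G0s2) and 4 in HFHFr-FA against HFHFr-F (Pparg, Cd36, Fabp4 and Cidea). No shares of all genes were set beside these 1.5-fold counts. Without the detection filter Plin1, below background on 5 of 5 arrays, counted as the 1 member lower in HFHFr-F, HFHFr-FA, HFHFr-N and HFHFr-NA, each against control. The other 115 of 126 member counts were within 1.5 times the count given. Signal over background limits Plin1 and the third Fabp4 probe.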

Other observations

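Cfd (adipsin), a protease that fat tissue secretes in large amounts, did not follow the other adipocyte markers, of which Adipoq, Lep, Retn and Ucp1 were dark. Its scaled signal was bright in all 5 pools and its log2 ratio was 1.27 in HFHFr-N against control, -1.64 in HFHFr-NA against HFHFr-N, 0.14 in HFHFr-F against control and 1.05 in HFHFr-FA against HFHFr-F. Retinoic acid thus went with a lower Cfd signal on normal diet and a higher one on the HFHFr diet. Angptl4, a secreted inhibitor of lipoprotein lipase, is on the list of PPARG targets and was named after its values were seen. It had a log2 ratio of -0.60 in HFHFr-F and of -0.64 in HFHFr-N, both against control. With retinoic acid it was at 0.67 on the HFHFr diet and at 0.51 on normal diet.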
